A study of Mus musculus with 12 samples.

Results

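The genes described here are those whose RNA was lost most strongly from progenitor CD8+ T cells that lack UTX, 164 of 25860 listed genes. They were chosen by their own RNA values. The mean over the 6 libraries had to be at least 10 normalized counts, and log2 of the UTX TCD mean plus 1 over the WT mean plus 1 had to be at most -2. The highest UTX TCD library also had to lie below the lowest WT library. *Dapl1*, *Thy1*, *Cd9*, *Fosl2*, *Ahnak* and every symbol starting with Itg or Klr were left out by name. The loss of RNA is therefore a description of how the genes were picked, and no test of it is given. What the choice did not use is their function, their position and the accessibility of chromatin near them.

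UTX, encoded by the X-linked gene *Kdm6a*, removes repressive methyl groups from a lysine of histone H3 and also sits in the MLL methyltransferase complexes that act at enhancers. In chronic stimulation, progenitor CD8+ T cells renew themselves and give rise to the effector-like cells that damage tissue. In type 1 diabetes of NOD mice these progenitors gather in the pancreatic lymph node and feed the attack on β cells.

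The study asked what UTX controls in those progenitors. RNA-seq and ATAC-seq, which reads open chromatin by where a transposase inserts, were each run on 3 libraries per genotype. The cells were CD8+ T cells from pancreatic lymph nodes of NOD females that carry the TCR 8.3 transgene, whose receptor recognises the β cell protein IGRP. They were sorted as positive for Ly108 and negative for CXCR6 by the series text, and as Ly108+CD39- by the paper. Mice called UTX TCD carried floxed *Kdm6a* alleles and Cre under the Lck promoter, which acts from thymic T cell development onwards. Controls, called WT, were littermates without Cre. The floxed and Cre alleles came from C57BL/6 mice and had been crossed to NOD for more than 10 generations, while reads were aligned to mm10, a C57BL/6 genome. Age was not given for these libraries. Every library came from the same transgenic receptor and the same sex, so other clones and males were not measured.

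*Kdm6a* itself was counted at 28365, 28949 and 29172 in WT and 24158, 24792 and 24579 in UTX TCD libraries, in DESeq2-normalized counts. Each UTX TCD library lay below each WT library (log2 fold change -0.23 with SE 0.037, adjusted p = 0.00114 in limma). A count over the whole gene cannot show whether the floxed exons were read. *Slamf6*, which encodes Ly108, was counted at 27732, 34096 and 23305 in WT and 36665, 30980 and 35425 in UTX TCD libraries, and the groups overlapped (adjusted p = 0.089 from limma). *Entpd1*, which encodes CD39, was low throughout, at 10.9, 29.6 and 11.4 in WT and 4.50, 12.8 and 4.42 in UTX TCD libraries (adjusted p = 0.131 from limma). *Cxcr6*, whose protein only the series text names in the sort, was counted at 12757, 9619 and 13724 in WT and 5286, 5994 and 5695 in UTX TCD libraries, and fell (log2 fold change -1.07 with SE 0.12, adjusted p = 0.000131 in limma). *Kdm6b*, the other demethylase of the family, was counted at 36213, 33987 and 35716 in WT and 35527, 35197 and 33916 in UTX TCD libraries and did not pass the test (adjusted p = 0.777 from limma).

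Of the 25860 listed genes, 14459 reached a mean of 10, and all 164 members are among them. A mean ratio at or under the limit was met by 179 of these, and 174 also had groups that did not overlap. Across the genes measured, 26.1% were lower in UTX TCD cells with no overlap of the groups. In the limma fit over those 14459 genes, 7.05% were called lower and 10.5% were called higher. Calls were made where the log2 fold change passed 0.5 in either direction at an adjusted p under 0.05. The same limits turned around, for gain in UTX TCD cells, gave 229 genes. In bulk RNA of this kind, fewer cells of a type and less RNA per cell cannot be told apart.

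Named exclusion removed 10 genes that met every limit. These were *Cd9* at a log2 ratio of -3.54, *Dapl1* at -3.55, *Fosl2* at -2.46, *Thy1* at -2.39, *Ahnak* at -2.57 and the integrins *Itga7* (-3.43), *Itgae* (-2.07), *Itgam* (-2.55), *Itgax* (-4.15) and *Itgad* (-4.26). No gene starting with Klr was among them. Overlap of the groups kept out 5 more, *Rasl10b*, *Gm7429*, *Olig3*, *Adamts1* and *Trim72*, which are named after their values were seen. In each of them 1 WT library or more was as low as UTX TCD cells.

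Close to the ratio limit, *Gm5111* was counted at 35.7, 13.8 and 29.7 in WT and 6.75, 4.80 and 5.90 in UTX TCD libraries, *Golm1* at 15778, 14449 and 15825 in WT and 3770, 3800 and 3813 in UTX TCD libraries and *Tbc1d30* at 1197, 1303 and 1192 in WT and 326, 305 and 279 in UTX TCD libraries. Their log2 ratios were -2.01, -2.02 and -2.02. Just outside it lay *Cdh1* (E-cadherin) at 205, 158 and 179 in WT and 63, 44 and 28 in UTX TCD libraries, *Cd79b* at 2502, 1930 and 2465 in WT and 648, 633 and 469.6 in UTX TCD libraries and the cannabinoid receptor gene *Cnr1* at 234, 230.0 and 244 in WT and 63, 64.1 and 50.9 in UTX TCD libraries. Their log2 ratios were -1.98, -1.98 and -1.97. At the expression minimum the last members inside were *Ak8* with a mean of 10.5, *Havcr2* with 10.5 and *Gm11186* with 10.9. *Ak8* was counted at 19.8, 25.7 and 16 in WT and 0, 0 and 1.47 in UTX TCD libraries and *Gm11186* at 18.8, 19.8 and 25.9 in WT and 0, 0.801 and 0 in UTX TCD libraries. The genes below it were *Cdh5* at 24.8, 21.7 and 9.91 in WT and 0 in every UTX TCD library, *Gm1647* at 10.9, 24.7 and 13.7 in WT and 2.25, 0 and 1.47 in UTX TCD libraries and *Gstt1* at 18.8, 10.9 and 15.2 in WT and 0, 1.60 and 1.47 in UTX TCD libraries. The edge of the set thus runs through genes with few reads as well as through some with many.

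Members spanned a wide range of WT levels but sat mostly low, a description only, since WT means enter the rule. Their median WT mean was 214 normalized counts, from 18 to 22285, against a median of 2498 over the 14459 genes. WT means of at least 1000 were found for 52 members (31.7%) and for 62.1% of all those genes. WT means under 100 were found for 59 members (36.0%), against 19.8%. Per kilobase of exon, a scale on which genes can be compared, the median was 61.6 for 162 members with a RefSeq length and 847 for all. Ordered into 10 equal classes on that scale, the lowest held 29 members, the next ones 45, 29 and 21, and the highest held 3. The median exon length was similar, 3493 bp for members and 3389 bp for all. In UTX TCD cells the members' median was 20.7 normalized counts, and the median log2 ratio was -2.81.

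**Figure D1:**
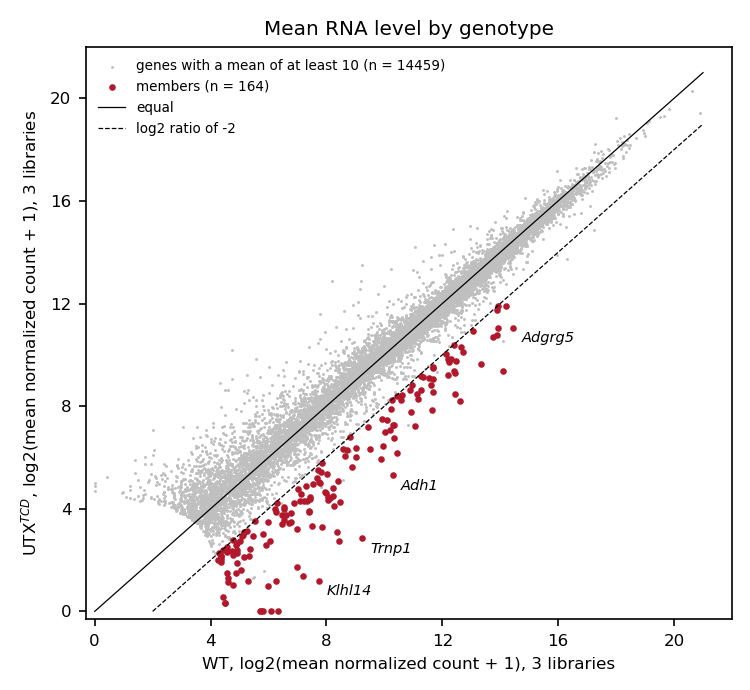
Mean RNA level of each gene in WT cells (horizontal axis) against UTX TCD cells (vertical axis), both as log2 of normalized counts plus 1, with the 164 members coloured and other genes with a mean of at least 10 in grey. Members lie below the line of the ratio limit at every level, from WT means of 18 to 22285.

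The spread between WT replicates depended on the level. For genes with WT means of at least 1000, the median SD of log2 levels in WT cells was 0.098 for members and 0.064 for all measured genes. From 100 to 1000 it was 0.254 and 0.154, and under 100 it was 0.325 and 0.353, where members did not exceed the rest. In UTX TCD cells, where members have smaller counts, it was 0.199, 0.464 and 0.811 for members of the same classes. WT replicate 2 was the lowest of the 3 WT libraries for 94 members (57.3%), against 39.4% of all genes. Summed over members, the WT libraries held 309564, 288940 and 304883 normalized counts and the UTX TCD libraries 44716, 44272 and 45031. With WT replicate 2 left out, 160 genes met the limits, of which 149 were members. That library was also highest in *Slamf6* and *Entpd1* and lowest in *Cxcr6* among WT libraries. It was highest in *Il7r* (79127, against 38077 and 37105) and *Id3* (2918, against 1755 and 1933), and lowest in *Ccr7* and *Bcl2*. The part of these differences in the members' levels was not tested.

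G protein-coupled receptors supplied 11 members, among them the gene with the highest WT count. *Adgrg5*, an adhesion receptor, was counted at 23605, 21953 and 21297 in WT and 2130, 2007 and 2287 in UTX TCD libraries. The libraries of each genotype were close to one another, and its WT level per kilobase was 7231. *F2rl1*, a protease-activated receptor, was counted at 14590, 13089 and 14045 in WT and 1440, 1446 and 2078 in UTX TCD libraries, and its relative *F2rl3* at 511, 474 and 553 in WT and 74.2, 50.5 and 64.1 in UTX TCD libraries. Counting error was small for these 3 in WT libraries. *Adgrg3*, encoded close to *Adgrg5*, was counted at 1116, 724 and 1047 in WT and 220.4, 198 and 128 in UTX TCD libraries. *Ccr4*, the receptor for the chemokines CCL17 and CCL22, was counted at 682, 682 and 731 in WT and 171, 162 and 98 in UTX TCD libraries. The receptor for lysophosphatidylserine, *Gpr34*, was counted at 183, 268 and 168 in WT and 54, 47.2 and 31 in UTX TCD libraries. The ADP receptor *P2ry1* was read little in any library, at 35.7, 21.7 and 54.1 in WT and 9.0, 3.20 and 11.1 in UTX TCD libraries. *Chrm3* (muscarinic acetylcholine), *Grm6* (glutamate) and *Mc1r* (melanocortin) also belong to the class, with WT means of 104.7, 398 and 22.9.

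Peaks named for these receptors were mostly less accessible in UTX TCD cells. Where 1 peak stands for a gene, here and below, it is the one with the largest absolute difference, and 24 members had peaks in both directions. ATAC-seq values here are the authors' log2 concentrations per peak, averaged over 3 libraries of a genotype, and the difference is UTX TCD minus WT. For *Adgrg5* the most changed was an intergenic peak at chr8:94950116-94950516 with -0.35. For *Adgrg3* it was an intronic peak at chr8:95012235-95012635 with -1.16, while its other peak was higher. The lower *Adgrg3* peak lies outside the gene's RefSeq span, in an intron of another transcript. *F2rl1* had an intronic peak at chr13:95517855-95518255 with -1.19, and *F2rl3* a peak in the first untranslated part of the transcript at chr8:72761660-72762060 with -0.40. *F2rl1* and *Ccr4* each also had 1 higher peak, at 0.378 and 0.464. Peaks far from the start were the most changed for the chemokine and purine receptors, namely an intergenic peak at chr9:114476552-114476952 for *Ccr4* (-2.51) and an intergenic peak at chr3:60821462-60821862 for *P2ry1* (-2.61). *Gpr34* had a promoter peak at chrX:13631570-13631970 with -1.58. The most changed peak of *Chrm3* was higher, at 0.64. In all, 35 of the class's 39 peaks were lower. These peaks were spread unevenly over the genes, and 4 of the 10 genes with a peak had both directions.

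Among 27 measured genes of a list of other lymphocyte G protein-coupled receptors, 5 were members (18.5%), against 1.13% of all measured genes. Lists were drawn up with earlier results of these data known. Such shares, here and below, therefore describe the lists and are not a test of enrichment. Of the 22 others, 7 fell and 2 rose, and 2 of the lower calls were lost in at least 1 alternative (another test, scaling, filter or pseudocount, a replicate block, or a library left out). *Ptgir*, the prostacyclin receptor, rose from low counts, at 5.94, 14.8 and 6.10 in WT and 72, 48 and 98 in UTX TCD libraries (log2 fold change 2.94 with SE 0.43, adjusted p = 0.000669 in limma). *Ptger2*, a prostaglandin E receptor, fell, at 500.2, 733 and 509 in WT and 209, 207 and 388 in UTX TCD libraries (log2 fold change -1.15 with SE 0.25, adjusted p = 0.00635 in limma). Among 22 measured chemokine and migration receptors only *Ccr4* was a member, while 4 others fell and 5 rose, with 2 of the higher calls lost in an alternative. *Ccrl2* rose, at 16.8, 28.6 and 10.7 in WT and 92.2, 76.9 and 114 in UTX TCD libraries (log2 fold change 2.36 with SE 0.36, adjusted p = 0.000936 in limma). *Cxcr5*, which guides cells into follicles, rose too, at 2658, 2788 and 2298 in WT and 6429, 6344 and 8593 in UTX TCD libraries (log2 fold change 1.45 with SE 0.12, adjusted p = 2.63e-05 in limma).

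Immune receptors of the immunoglobulin, lectin and scavenger families made up 10 members. *Cd7*, a T and NK cell surface protein, was counted at 15212, 14948 and 15430 in WT and 3419, 3434 and 3419 in UTX TCD libraries, with UTX TCD libraries almost equal. *Cd160*, a receptor for HVEM, was counted at 3190, 3119 and 3409 in WT and 609.6, 642 and 921 in UTX TCD libraries. *Lair1*, an inhibitory receptor for collagens, was counted at 1020, 759 and 1040 in WT and 63, 76.9 and 40.5 in UTX TCD libraries. *Havcr2*, which encodes the checkpoint receptor Tim-3, was counted at only 17.8, 21.7 and 14.5 in WT and 2.25, 3.20 and 3.69 in UTX TCD libraries, near the expression minimum. *Igsf23*, an immunoglobulin family gene, was counted at 1814, 2023 and 1780 in WT and 333, 341 and 496 in UTX TCD libraries. *Cd163*, the haemoglobin scavenger receptor known from macrophages, was counted at 425, 196 and 375 in WT and 6.75, 11.2 and 4.42 in UTX TCD libraries, and WT replicate 2 was the lowest of its group. *Cd86*, the ligand of CD28 and CTLA-4, had a WT mean of 1388, and *Fcgr3*, an IgG receptor, one of 78.1. *Nfam1*, which carries an activation motif, and *Clec12a*, an inhibitory lectin, had WT means of 265.8 and 23.5.

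At these loci *Cd7* had an intergenic peak at chr11:121027376-121027776 with a difference of -2.75. *Lair1* had a promoter peak at chr7:4063003-4063403 with -0.90, at 8.31 in WT and 7.42 in UTX TCD cells. *Igsf23* had an intronic peak at chr7:19949983-19950383 with -0.78, and *Cd163* an exonic peak at chr6:124320305-124320705 with -2.03. *Havcr2* and *Nfam1* went the other way, with an intergenic peak at chr11:46448053-46448453 and 0.74 for the first and an intergenic peak at chr15:83056491-83056891 and 0.845 for *Nfam1*, which had 2 of 3 peaks higher. Of 15 peaks in the class 12 were lower. No listed peak carried the names *Cd160*, *Cd86* or *Fcgr3*.

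Of 32 measured inhibitory and costimulatory receptors, *Havcr2*, *Cd160*, *Cd7* and *Lair1* were members (12.5%). Among the 28 others 7 fell and 2 rose, and 3 of the lower calls were lost in an alternative. *Cd101* fell, at 579.5, 448 and 535 in WT and 236, 199 and 207 in UTX TCD libraries (log2 fold change -1.27 with SE 0.14, adjusted p = 0.000135 in limma). *Tnfrsf18*, which encodes GITR, fell as well, at 5971, 5500 and 6284 in WT and 2866, 2985 and 3263 in UTX TCD libraries (log2 fold change -0.96 with SE 0.069, adjusted p = 1.28e-05 in limma). Cytokine receptors gave no member among 30 measured, though 8 fell and 6 rose, 3 of them not in every alternative. *Csf1r* fell, at 27.7, 25.7 and 19.1 in WT and 4.50, 5.61 and 8.11 in UTX TCD libraries (log2 fold change -1.85 with SE 0.39, adjusted p = 0.00496 in limma). *Lifr* rose, at 6.93, 14.8 and 10.7 in WT and 51.7, 60.9 and 21.4 in UTX TCD libraries (log2 fold change 1.88 with SE 0.46, adjusted p = 0.0107 in limma).

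Proteases, their inhibitors and receptors of the clotting and plasminogen systems gave 13 members. *Plaur*, the urokinase receptor that focuses plasminogen activation on the cell surface, was counted at 9091, 7685 and 8945 in WT and 2054, 2014 and 1818 in UTX TCD libraries. *Cst7*, cystatin F, an inhibitor of the proteases that activate granzymes, was counted at 5696, 4167 and 5195 in WT and 918, 868 and 994 in UTX TCD libraries. *Itih5*, a hyaluronan-binding inhibitor chain, was counted at 956, 1233 and 954 in WT and 115, 111 and 158 in UTX TCD libraries. The granzyme gene *Gzmc* was rare, at 18.8, 13.8 and 22.9 in WT and 6.75, 3.20 and 1.47 in UTX TCD libraries. *Procr*, the endothelial protein C receptor, was counted at 132, 1.98 and 103 in WT and 0 in every UTX TCD library. Its WT replicate 2 value comes from 2 reads, so that 1 WT library lay 52.1-fold below the next, near the UTX TCD level. With every UTX TCD library at 0, it was at least 20.8-fold lower there, taking 3 reads per library, averaged over the group, as the floor.

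The remaining members of this class range from extracellular enzymes to inhibitors. They are *Plat* (tissue plasminogen activator), *Prss12* (neurotrypsin), *Reck* (a membrane inhibitor of matrix metalloproteases), *Cpa3* (a carboxypeptidase of mast cells), *Cym* (chymosin), *Hc* (complement C5), *Serpinb1a* and *Slpi* (inhibitors of neutrophil proteases). Of these *Reck* had the highest WT mean, 3260 normalized counts. *Cym* was lost to 0 reads in 2 UTX TCD libraries, and its log2 ratio moved by 2.15 when UTX TCD replicate 3 was left out.

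Accessibility split within the class. *Plaur* had a promoter peak at chr7:24461321-24461721 with -0.53 and a higher intronic peak at 0.417, and *Cst7* had an intergenic peak at chr2:150579843-150580243 with -1.32. *Itih5* had a promoter peak at chr2:10153317-10153717 with -0.38, and *Gzmc* a peak at chr14:56240417-56240817 with -0.59, labelled intergenic by the file but within the gene's RefSeq span. *Procr*, by contrast, gained signal at a promoter peak at chr2:155751022-155751422, with 5.44 in WT and 7.11 in UTX TCD cells, a difference of 1.68. Of 16 peaks in the class 12 were lower and 4 higher.

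Of 14 measured genes of cytotoxic granules and killing, *Gzmc* and *Cst7* were members, and 3 others fell. *Srgn* and *Ctsw* lost the call with libraries scaled to the same sum (log2 fold change -0.477 and -0.463 in limma), and each also without 1 UTX TCD library. *Gzma* fell, at 235, 196 and 211 in WT and 104, 90.5 and 113 in UTX TCD libraries (log2 fold change -1.06 with SE 0.17, adjusted p = 0.00104 in limma). Of 17 measured cytokine and chemokine ligands 0 were members, while 2 fell and 6 rose, and 4 of these 8 calls were lost in an alternative. *Xcl1*, the ligand that draws cross-presenting dendritic cells, fell, at 992, 1358 and 978 in WT and 220.4, 227 and 448 in UTX TCD libraries (log2 fold change -1.95 with SE 0.26, adjusted p = 0.000422 in limma). *Cxcl10* rose, at 147, 329.7 and 170.1 in WT and 724, 689 and 709 in UTX TCD libraries (log2 fold change 1.80 with SE 0.26, adjusted p = 0.000669 in limma).

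Secreted ligands, guidance receptors, matrix and adhesion genes formed a class of 21. *Lgals1*, galectin-1, had the highest count, at 11700, 8513 and 11074 in WT and 828, 766 and 772 in UTX TCD libraries. *Nrp2*, a coreceptor of semaphorins and VEGF, was counted at 4781, 4595 and 4733 in WT and 891, 910.5 and 970.1 in UTX TCD libraries. *Nrg2*, a ligand of ERBB receptors, was counted at 2031, 1574 and 2190 in WT and 259, 269.9 and 132 in UTX TCD libraries. Of these 3, *Nrp2* varied least among WT libraries. *App*, the amyloid precursor protein gene, was counted at 820.2, 491 and 887 in WT and 90, 100.1 and 48.6 in UTX TCD libraries. *Tgfb3*, a TGF-beta ligand, was counted at 225, 168 and 256 in WT and 31.5, 32.8 and 28 in UTX TCD libraries, and *Ndnf*, a secreted neuronal factor, at 324, 222 and 339 in WT and 29.2, 24 and 11.1 in UTX TCD libraries. The tight junction genes *Cldn10* and *Cldn4* were counted at 184, 519 and 203 in WT and 22.5, 28.8 and 30.2 in UTX TCD libraries and at 76.3, 112 and 84.7 in WT and 9.0, 6.41 and 29.5 in UTX TCD libraries. *Cldn10* was 2.56-fold higher in WT replicate 2 than in the next WT library.

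At the extreme of the class were genes with no read at all in UTX TCD libraries. *Megf10*, an engulfment receptor, was counted at 52.5, 38.5 and 62.5 in WT and 0 in every UTX TCD library, and *Lhfpl1*, a four-span membrane protein gene, at 51.5, 46.4 and 68.6 in WT and 0 in every UTX TCD library. Against the same floor, they were at least 13.5-fold and 14.7-fold lower. The tetraspanin gene *Tspan2* was counted at 33.7, 29.6 and 23.6 in WT and 4.50, 8.01 and 3.69 in UTX TCD libraries. Others were *Lypd6b* with a WT mean of 6270, *Col6a4* (a collagen VI chain) with 4661 and *Zan* (zonadhesin) with 3190. At lower levels came *Lbp* (which binds lipopolysaccharide), *Plxdc1*, *Ptprm* (a receptor phosphatase), *Cdh13* (a cadherin), *Ctnnd2* (a catenin), *Fbln2* (fibulin-2) and *Smoc1*.

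Peaks of this class included both directions. *Lgals1* had a promoter peak at chr15:78926033-78926433 with -1.04, at 10.27 in WT and 9.23 in UTX TCD cells. *Nrg2* had an intronic peak at chr18:36182992-36183392 with -1.32, *App* an intronic peak at chr16:85172414-85172814 with -0.65, and *Tgfb3* an intronic peak at chr12:86034031-86034431 with -1.46. The 6 peaks named for *Gm10791*, which overlaps *App*, were all lower. The lowest of them, at chr16:85000218-85000618 with -1.79, lies in an intron of *App*. That of *Tgfb3* lies outside the gene's RefSeq span, in an intron of another transcript. *Ndnf* had an intergenic peak at chr6:65663164-65663564 with -1.26. Both claudin genes lost signal, at an intronic peak at chr14:118840147-118840547 (-2.39) and at an intergenic peak at chr5:134951312-134951712 (-1.26). *Lhfpl1* had a peak at chrX:145362528-145362928 with -1.20, which the file labels intergenic and which lies within the gene's RefSeq span. *Tspan2* had an intronic peak at chr3:102724131-102724531 with -0.87, while the other 3 of its 4 peaks were higher, at 0.39, 0.48 and 0.61. The lower one lies outside the *Tspan2* span, in an intron of another transcript. *Nrp2* stood apart, since all 5 of its peaks were higher, led by an intronic peak at chr1:62437807-62438207 with 1.73. That peak lies upstream of *Nrp2*, outside its RefSeq span, in an intron of another transcript. *Megf10* had the largest gain of any member's peak, an intergenic peak at chr18:57059303-57059703 with 1.93, while its promoter peak and an intronic peak were lower, at -0.62 and -1.42. The class counted 51 lower peaks of 64.

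Lists that share genes with this class held 1 or 2 members each, apart from that of *Lgals1*, given further below. Of 26 measured semaphorins, plexins, ephrins and their receptors only *Nrp2* was a member, 5 others fell and 7 rose, with 2 of the calls lost in an alternative. *Sema4f* fell, at 13252, 11084 and 13714 in WT and 4490, 4415 and 3520 in UTX TCD libraries (log2 fold change -1.62 with SE 0.11, adjusted p = 8.16e-06 in limma). Of 30 measured genes of TGF-beta signalling *Tgfb3* was the member, while 4 others fell and 4 rose, with 2 of the lower calls lost in an alternative. The receptor gene *Acvr1* rose, at 87.2, 75 and 107 in WT and 322, 336 and 259.5 in UTX TCD libraries (log2 fold change 1.76 with SE 0.19, adjusted p = 0.000114 in limma). Of 26 tetraspanin and four-span genes *Tspan2* and *Lhfpl1* were members, 2 others fell and 3 rose, with 2 of these calls lost in an alternative. These counts do not hold *Cd9*, which met every limit but was left out by name (log2 ratio -3.54). *Cd81* rose, at 1163, 1146 and 1111 in WT and 4607, 4688 and 4031 in UTX TCD libraries (log2 fold change 1.96 with SE 0.072, adjusted p = 2.24e-07 in limma).

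Cytoskeleton and vesicle traffic genes, 14 members, included 9 with WT means of at least 1000. *Myo1f*, an unconventional myosin of leukocytes, was counted at 15927, 15020 and 15745 in WT and 1982, 2037 and 2273 in UTX TCD libraries. *Actn2*, an actin-binding actinin of muscle, was counted at 3198, 3168 and 3061 in WT and 493, 449 and 426 in UTX TCD libraries. *Srgap3*, a GTPase activator protein, was counted at 1194, 1347 and 1324 in WT and 153, 138 and 164 in UTX TCD libraries. *Golm1*, a Golgi membrane protein, and *Tbc1d30*, a Rab GTPase activator, were given above with the limits. *Scgn*, a calcium sensor of secretory cells, was counted at 53.5, 38.5 and 64.8 in WT and 0 in every UTX TCD library, at least 13.8-fold lower against the 3-read floor. The class further held *Plekha6* (WT mean 5604), *Cpne4* (5551), *Scg5* (2145) and *Sytl2* (1510), the last of which tethers secretory granules. *Frmd5*, *Pheta2*, *Myo3b* and *Arhgap23* had WT means between 58.8 and 257.3.

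*Myo1f* had an intronic peak at chr17:33566098-33566498 with a difference of -2.21, and *Actn2* an intronic peak at chr13:12333223-12333623 with -1.23. *Srgap3* had an intronic peak at chr6:112945027-112945427 with -2.54. *Golm1* had an intronic peak at chr13:59668414-59668814 with -0.66, *Tbc1d30* an intronic peak at chr10:121300617-121301017 with -1.17 and 1 higher peak at 0.556, and *Scgn* an intronic peak at chr13:23964235-23964635 with -0.59. These 6 genes, unlike *Myo3b* and *Frmd5*, had a lower peak as their most changed.

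Of 35 measured annexin, S100, galectin and cytoskeleton genes *Lgals1*, *Actn2* and *Myo1f* were members (8.57%), 11 others fell and 3 rose. These counts do not hold *Ahnak*, which met every limit but was left out by name (log2 ratio -2.57). *S100a6* lost its lower call without WT replicate 3 (adjusted p = 0.0586 in limma), *Nes* its higher call when any 1 of 3 libraries was left out, and 2 further calls were lost in an alternative. *S100a11* fell, at 1773, 1636 and 1572 in WT and 616, 576 and 545 in UTX TCD libraries (log2 fold change -1.52 with SE 0.087, adjusted p = 3.71e-06 in limma).

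Signalling enzymes and regulators, 9 members, had the most uniform accessibility, with 50 of 51 peaks lower. *Ncf1*, a subunit of the phagocyte NADPH oxidase, was counted at 5479, 8640 and 5806 in WT and 936, 1064 and 1288 in UTX TCD libraries, highest in WT replicate 2. *Rgs2*, which shortens G protein signals, was counted at 2308, 2033 and 2359 in WT and 373, 357 and 341 in UTX TCD libraries. *Fgr*, a Src family kinase, was counted at 1590, 1563 and 1534 in WT and 288, 323 and 433 in UTX TCD libraries, and *Pde9a*, a phosphodiesterase of cyclic GMP, at 1429, 1327 and 1406 in WT and 74.2, 60.9 and 76.7 in UTX TCD libraries. *Bmf*, a proapoptotic BCL2 family gene, was counted at 1212, 1370 and 1228 in WT and 189, 176 and 87.7 in UTX TCD libraries. *Pkib*, an inhibitor of protein kinase A, was near the expression minimum, at 29.7, 18.8 and 37.4 in WT and 0, 4.0 and 1.47 in UTX TCD libraries. *Rgcc* had a WT mean of 4516, *Edaradd* (an adaptor of a TNF family receptor) 306.2 and *Irag1* (a target of cyclic GMP kinase) 19.2.

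The strongest peaks of these regulators lay away from promoters. *Ncf1* had an intronic peak at chr5:134253359-134253759 with -2.63, *Rgs2* an intergenic peak at chr1:144041822-144042222 with -2.05 and *Bmf* an intergenic peak at chr2:118519167-118519567 with -2.75. That of *Ncf1* lies outside the gene's RefSeq span, in an intron of another transcript. *Fgr* had an intronic peak at chr4:132982882-132983282 with -1.66, and *Pde9a* an intronic peak at chr17:31423045-31423445 with -1.71. The single higher peak of the class was that of *Pkib*, a peak in the first untranslated part of the transcript at chr10:57631884-57632284 with 1.63. *Irag1* had no peak under its own symbol, but 4 peaks under its older name *Mrvi1* were all lower, with a mean difference of -0.58.

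Of 38 measured signalling brakes *Rgs2* was the only member, 3 others fell and 4 rose. *Cish* rose, at 756, 827 and 742 in WT and 2423, 2705 and 2161 in UTX TCD libraries (log2 fold change 1.64 with SE 0.095, adjusted p = 3.92e-06 in limma). *Ptpn13* fell, at 1528, 1959 and 1471 in WT and 484, 527 and 634 in UTX TCD libraries (log2 fold change -1.59 with SE 0.14, adjusted p = 3.44e-05 in limma).

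Ubiquitin ligases and kelch proteins gave 6 members, which include the gene with the strongest log2 ratio at the rule's pseudocount of 1. That gene, *Klhl14*, encodes a kelch protein of lymphocytes and was counted at 268, 141 and 226 in WT and 2.25, 1.60 and 0 in UTX TCD libraries. The highest count was that of *Neurl3*, a ligase of the neuralized family, at 14508, 15265 and 15399 in WT and 1527, 1666 and 1990 in UTX TCD libraries. *Hectd2* was counted at 1107, 1411 and 1100 in WT and 249.7, 219 and 231 in UTX TCD libraries. *Trim9* and *Pdzrn3* were near the expression minimum, at 21.8, 20.7 and 19.1 in WT and 6.75, 3.20 and 2.95 in UTX TCD libraries and at 20.8, 20.7 and 16.8 in WT and 4.50, 4.80 and 0 in UTX TCD libraries. *Rnf144a* had a WT mean of 1286 and no listed peak. *Klhl14* had an intergenic peak at chr18:21709029-21709429 with -1.45, *Neurl3* an exonic peak at chr1:36266272-36266672 with -2.30 and *Hectd2* an intergenic peak at chr19:36487103-36487503 with -2.16. *Pdzrn3* had an intronic peak at chr6:101271403-101271803 with -2.38. The most changed peak of *Trim9* was higher, an intronic peak at chr12:70371510-70371910 with 0.88, outside the gene's RefSeq span.

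Nuclear and RNA-acting proteins were 9 members, and every one had a listed peak. *Tent5a*, a poly(A) polymerase of the cytoplasm, had the highest count, at 19190, 17065 and 20027 in WT and 3768, 3982 and 3770 in UTX TCD libraries. *Trnp1*, a nuclear protein known from cortical progenitors, was counted at 499, 822 and 462 in WT and 2.25, 10.4 and 5.90 in UTX TCD libraries, with WT replicate 2 highest. *Heyl*, a Notch target repressor, was counted at 84.2, 87.9 and 92.3 in WT and 2.25, 12.8 and 14 in UTX TCD libraries, and *Greb1*, a hormone-responsive gene, at 126, 149 and 129 in WT and 27, 16.8 and 11.8 in UTX TCD libraries. *Eya2*, a transcriptional coactivator and phosphatase, had a WT mean of 4830. *Npas2* (a clock factor), *Msgn1* (a mesoderm factor), *Bend7* and *Zfp618* had WT means between 32.0 and 277. *Tent5a* had 15 listed peaks, led by an intergenic peak at chr9:85117933-85118333 with -2.33. *Trnp1* had an intergenic peak at chr4:133501501-133501901 with -2.45, and *Heyl* a peak in the first untranslated part of the transcript at chr4:123233502-123233902 with -0.48. *Greb1* was again different, with an intronic peak at chr12:16800360-16800760 and 1.66. The largest loss of any member's peak was that of *Zfp618*, an intronic peak at chr4:63012761-63013161, at 7.13 in WT and 3.55 in UTX TCD cells, a difference of -3.58.

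Transcription factor lists held no member, which is near the 1.13% of all measured genes for lists this short. Of 34 measured transcription factors of CD8 T cell fate 0 were members, while 3 fell and 12 rose, with 2 of the higher calls lost in an alternative. *Tox2* rose, at 65.4, 65.2 and 64.1 in WT and 198, 191 and 237 in UTX TCD libraries (log2 fold change 1.66 with SE 0.17, adjusted p = 9.72e-05 in limma). Of 23 measured AP-1, EGR and NR4A factors 0 were members, *Fosl2* meeting every limit but left out by name, while 3 others fell and 5 rose, with 1 lower call lost in an alternative. *Maf* rose, at 297, 369 and 288 in WT and 2094, 2019 and 2346 in UTX TCD libraries (log2 fold change 2.76 with SE 0.12, adjusted p = 5.07e-07 in limma). Of 24 measured tissue residency genes *Rgs2* and *Gpr34* were members, 8 others fell and 5 rose, with 3 of the lower calls lost in an alternative. These counts do not hold *Itgae*, which met every limit but was left out by name (log2 ratio -2.07). *Qpct* fell, at 301, 239.9 and 309 in WT and 99, 104 and 102 in UTX TCD libraries (log2 fold change -1.46 with SE 0.16, adjusted p = 0.000132 in limma).

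Metabolic enzymes were the largest class with a known role after adhesion, at 19 members. *Adh1* and *Adh7*, alcohol dehydrogenases that also oxidise retinol, were counted at 1296, 1094 and 1348 in WT and 56.2, 35.2 and 25.1 in UTX TCD libraries and at 154, 116 and 111 in WT and 2.25, 2.40 and 2.21 in UTX TCD libraries. *Ampd1*, which deaminates AMP, was counted at 6985, 5980 and 6358 in WT and 1233, 1204 and 1368 in UTX TCD libraries. *Abhd15*, a hydrolase family gene, was counted at 5382, 5008 and 5697 in WT and 722, 729.5 and 552 in UTX TCD libraries. *Pltp*, a phospholipid transfer protein gene, was counted at 1147, 1128 and 1227 in WT and 90, 140.1 and 165 in UTX TCD libraries, and *Soat2*, which esterifies cholesterol, at 94.1, 81.9 and 89.2 in WT and 9.0, 5.61 and 22.9 in UTX TCD libraries. Enzymes that build glycans included *Fut7*, which makes selectin ligands, at 156, 116 and 175 in WT and 18, 19.2 and 19.2 in UTX TCD libraries. *Gcnt4* was counted at 289, 138 and 263 in WT and 6.75, 8.01 and 11.8 in UTX TCD libraries and *B3galt5* at 82.2, 33.6 and 72.5 in WT and 11.2, 8.81 and 10.3 in UTX TCD libraries. In these last 2 genes WT replicate 2 was the lowest WT library, and in *B3galt5* 2.16-fold below the next.

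The other enzymes act on lipids, nucleotides, amines and proteins. *Acsbg1* (WT mean 2948) and *Acsbg2* (28.1) activate fatty acids, and *Acoxl* (155.8) is related to acyl-CoA oxidases. *Ppic* (3249) is a prolyl isomerase, *P3h4* (231.6) belongs to the family of collagen prolyl hydroxylases, and *Art4* (2271) to the ADP-ribosyltransferases. *Cyp2s1* (1077) is a cytochrome P450, *Ddc* (375.3) makes dopamine and serotonin, and *Nmnat2* (172.1) makes NAD. *Ak8*, an adenylate kinase, was at the expression minimum.

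*Abhd15* had a promoter peak at chr11:77514925-77515325 with -0.84 and 1 higher peak, and *Fut7* a promoter peak at chr2:25422682-25423082 with -0.52. *Gcnt4* had a promoter peak at chr13:96924526-96924926 with -0.39, and *Pltp* an intergenic peak at chr2:164866699-164867099 with -0.64. *Soat2* had an intronic peak at chr15:102147488-102147888 with -0.71, while its other peaks, 1 at the promoter, were higher, at 0.51 and 0.52. The lower peak lies outside the *Soat2* span, in an intron of another transcript. *B3galt5* had a higher one, an intronic peak at chr16:96292930-96293330 with 0.94. *Ampd1* had no listed peak under its name.

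The alcohol dehydrogenase locus on chromosome 3 held 3 members side by side. *Adh7* at chr3:138198064-138232042, the overlapping transcript *0610031O16Rik* on the opposite strand at chr3:138210717-138239663 and *Adh1* at chr3:138277585-138290698 (GRCm38/mm10) were all lost. *0610031O16Rik* was counted at 88.2, 65.2 and 71.7 in WT and 2.25, 1.60 and 0 in UTX TCD libraries. All 6 listed peaks between 138149633 and 138277330 were lower. Those named for members differed by -0.60 and -2.30 (*Adh7*), -3.40 and -1.40 (*0610031O16Rik*) and -1.56 (*Adh1*). The *Adh1* peak was a promoter peak at chr3:138276930-138277330, with 9.28 in WT and 7.72 in UTX TCD cells. Next to them *Trmt10a*, with 1 peak at -0.49, had a log2 ratio of -0.27, and *Mttp* had one of 0.03. *Adh6a* and *Adh6b*, on the far side, were hardly read in either genotype.

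**Figure D2:**
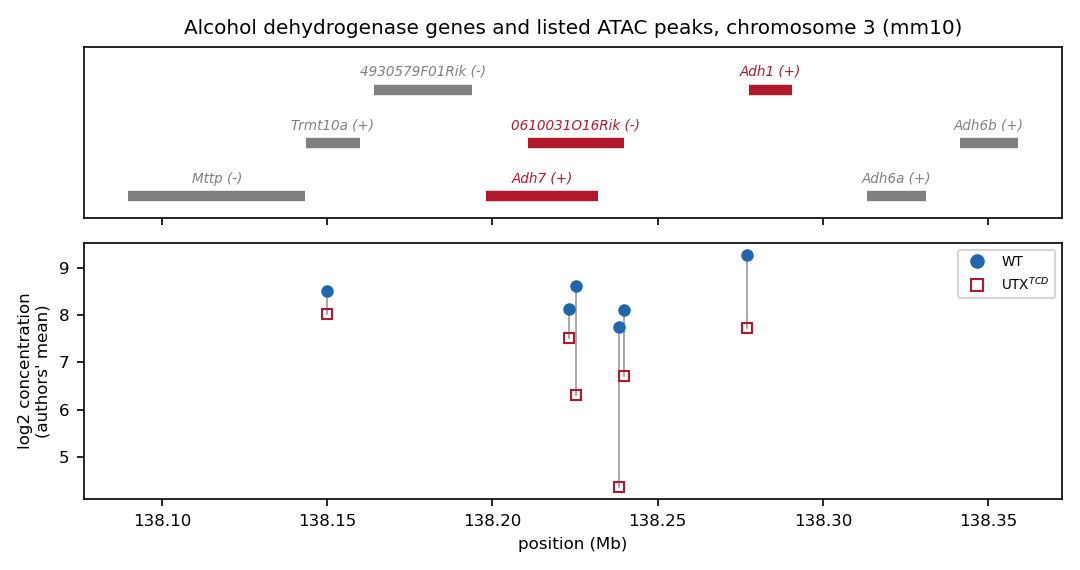
Map of the alcohol dehydrogenase locus on chromosome 3 (horizontal axis, position in GRCm38/mm10), with genes drawn to scale above, members in red, and the authors' mean log2 concentration of each listed peak in both genotypes on the vertical axis below. All 6 peaks are lower in UTX TCD cells. The deepest, at -3.40, lies in an intron of *0610031O16Rik*, 1395 bases from its start.

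Channels and transporters gave 12 members. *Trpm1*, a cation channel of the TRP family, was counted at 5339, 5497 and 5467 in WT and 1444, 1389 and 1167 in UTX TCD libraries, and *Mcoln2*, an endolysosomal channel, at 3471, 2928 and 3329 in WT and 277, 312 and 542 in UTX TCD libraries. *Slc16a10*, a transporter of aromatic amino acids, was counted at 2767, 2246 and 2813 in WT and 637, 636 and 425 in UTX TCD libraries. *Abcb9*, a lysosomal peptide transporter, was counted at 2379, 2245 and 2670 in WT and 533, 554 and 662 in UTX TCD libraries. *Slc39a4*, which imports zinc, was counted at 451, 403 and 507 in WT and 115, 98.5 and 120.2 in UTX TCD libraries, and *Aqp9*, an aquaglyceroporin, at 104, 82.9 and 99.9 in WT and 18, 9.61 and 10.3 in UTX TCD libraries. *Slc4a4*, a bicarbonate cotransporter, was counted at 89.2, 36.5 and 69.4 in WT and 2.25, 8.81 and 5.90 in UTX TCD libraries. In *Slc4a4* WT replicate 2 was the lowest WT library. *Abcb1a*, the drug efflux pump, had a WT mean of 1962, and *Scn11a*, a sodium channel, 351.8. *Pkd1l2*, *Slc9c1* and *Slc22a2*, an organic cation transporter, had WT means of 19.5, 26.0 and 26.4.

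*Slc16a10* had 11 listed peaks, 10 of them lower, led by an intergenic peak at chr10:40152314-40152714 with -2.61. *Trpm1* had an intronic peak at chr7:64192303-64192703 with -1.80, *Mcoln2* an intronic peak at chr3:146156200-146156600 with -1.38 and *Abcb9* an intronic peak at chr5:124077987-124078387 with -0.94. The promoter peak of *Abcb9* was higher, at 0.859. *Slc39a4* had an intronic peak at chr15:76616340-76616740 with -1.01, just inside the gene. *Slc4a4* had an intronic peak at chr5:89077990-89078390 with -1.87, while its promoter peak and an intronic peak were higher, at 1.41 and 0.642. *Aqp9* had an intronic peak at chr9:71155609-71156009 with -1.32, while its other peaks, 1 at the promoter, were higher, at 0.46 and 0.68. *Scn11a* and *Pkd1l2* each had 1 peak, which was higher.

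Among short and rearranged genes, *Ighv8-6* and *Ighv1-56*, immunoglobulin heavy chain V segments, had WT means of 21.8 and 22.8. *Rnu1a1*, a U1 small nuclear RNA gene, was counted at 145, 48.4 and 9.91 in WT and 0 in every UTX TCD library. It was at least 17.9-fold lower against the 3-read floor. Its WT libraries were far apart, and without WT replicate 1 its log2 ratio moved by 1.19. None of these 3 had a listed peak.

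A known role could not be given with certainty for 37 members, 35 of which had WT means under 1000. *4933440M02Rik* was counted at 146, 123.4 and 168 in WT and 0, 4.80 and 0 in UTX TCD libraries, and *G430095P16Rik* at 399, 274 and 374 in WT and 6.75, 8.01 and 2.21 in UTX TCD libraries. *A530021J07Rik* was counted at 58.4, 68.1 and 61.8 in WT and 0, 0 and 2.95 in UTX TCD libraries, *AA467197* at 268, 165 and 172 in WT and 58.5, 27.2 and 22.9 in UTX TCD libraries and *Hspa12a* at 112, 91.8 and 126 in WT and 6.75, 3.20 and 20.6 in UTX TCD libraries. In UTX TCD libraries the first 3 of these stayed under 10. *Spats2l* was counted at 156, 196 and 205 in WT and 36, 19.2 and 36.1 in UTX TCD libraries, *Sh3tc1* at 48.5, 35.5 and 46.5 in WT and 2.25, 11.2 and 6.63 in UTX TCD libraries and *Lix1* at 22.8, 45.4 and 25.9 in WT and 9.0, 1.60 and 6.63 in UTX TCD libraries. The highest WT means were those of *Abtb3* (WT mean 5695) and *Evi2a* (2438).

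Named further in this class are *Wscd2*, *Gm5547*, *Fam186b*, *2900026A02Rik*, *Tmem141*, *D630039A03Rik*, *Gm6551*, *Ccdc162* and *Tmem121b*, with WT means between 166.1 and 519.7. Below 100 were *4930546C10Rik*, *Fam135b*, *Xlr3c*, *Wdr49*, *Gm6639*, *Mro*, *4932438H23Rik*, *4930471G03Rik*, *4930447K03Rik*, *Gm10791*, *1700030A11Rik*, *2410003L11Rik*, *1700026D11Rik*, *Gm5331* and *Rab11fip4os2*, besides *Gm5111* and *Gm11186*. Such counts rest on few reads, and leaving out UTX TCD replicate 1 moved the log2 ratio of *Rab11fip4os2* by 1.35.

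*4933440M02Rik* had an intergenic peak at chr7:125186425-125186825 with -3.28. *A530021J07Rik* had a promoter peak at chr7:83148144-83148544 with -0.76, *AA467197* a promoter peak at chr2:122637641-122638041 with -0.59 and *Hspa12a* an intronic peak at chr19:58850608-58851008 with -0.96. *Hspa12a* had 2 promoter peaks, at -0.872 and 0.373. *Lix1* had an intronic peak at chr17:17438932-17439332 with -1.83. *Gm11186* had an intronic peak at chr11:53116306-53116706 with -1.33, and *Gm5111* an intergenic peak at chr6:48582005-48582405 with -0.56. Higher peaks led for *Spats2l*, an intronic peak at chr1:57774864-57775264 with 1.13, and for *Sh3tc1*, an intronic peak at chr5:35713657-35714057 with 0.77, against -0.75 at its other peak.

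**Figure D3:**
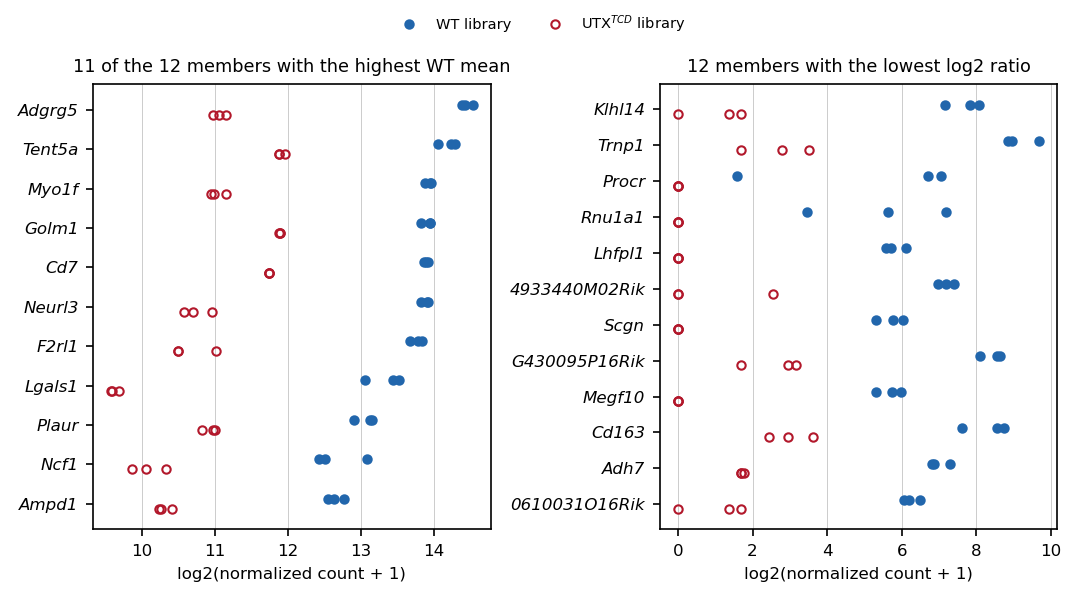
RNA level in each of the 3 WT and 3 UTX TCD libraries, as log2 of normalized counts plus 1 on the horizontal axis, for 11 of the 12 members with the highest WT mean (left) and the 12 with the lowest log2 ratio (right). Each point is a library. The libraries of a genotype lie close together except in low-count genes such as *Procr* and *Rnu1a1*.

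Over all members, chromatin near the lost genes was mostly less accessible. The authors' table holds 23932 peaks, all with an adjusted p under 0.05 by their own test, and 423 of them carried the name of 128 members. That is 78.0% of members, against 47.6% of the 14459 measured genes and 73.8% of the 229 gained genes, so members and gained genes differ little in having a peak. Of these 423 peaks 356 (84.2%) were lower in UTX TCD cells. Among all listed peaks 31.2% were lower, among peaks of the measured genes 34.3%, and among peaks of the gained genes 9.22%. The median difference was -0.85 for members and 0.49 for all listed peaks. Median log2 concentrations at the members' peaks were 8.28 in WT and 7.44 in UTX TCD cells. These are group means, so no spread between libraries is given and no test is made here. The paper also asks for a log2 fold change over 0.5 in either direction before it calls a peak, and the table is wider than that. By concentration, 17503 listed peaks (73.1%) and 343 of the members' (81.1%) differed by more than 0.5, and of these 32.5% and 86.6% were lower. Regions with a higher adjusted p are not in the table.

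By gene, 85 members had only lower peaks, 19 only higher peaks, 24 both and 36 none. Averaged within a gene, the difference was below 0 for 103 of the 128 (80.5%), against 29.4% of measured genes with a peak. Members with many peaks included *Tent5a* (15), *Ncf1* (11), *Slc16a10* (11), *Lix1* (10) and *Lypd6b* (10), and 30 members had at least 5. Lower peaks made up 92.2% for members with WT means of at least 1000, 74.3% between 100 and 1000 and 78.6% under 100.

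Position of these peaks was like that of the table as a whole. Introns held 48.9%, intergenic sequence 31.2% and promoters 10.2%, in the file's annotation. An intronic label need not mean an intron of the member a peak is named for. Of 207 intronic peaks 40 lay outside that member's RefSeq span, some in introns of another transcript, as at *Ncf1* and *Nrp2*. Labels and spans disagreed for 12 of 132 intergenic peaks, which lay within the span. The median distance to a transcription start was 15854 bases, against 16778 for all listed peaks. Within 1000 bases of a start lay 62 of the members' peaks, and 49 of them (79.0%) were lower. Of all listed peaks at that distance 13.6% were lower, and 18.4% of those of measured genes.

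**Figure D4:**
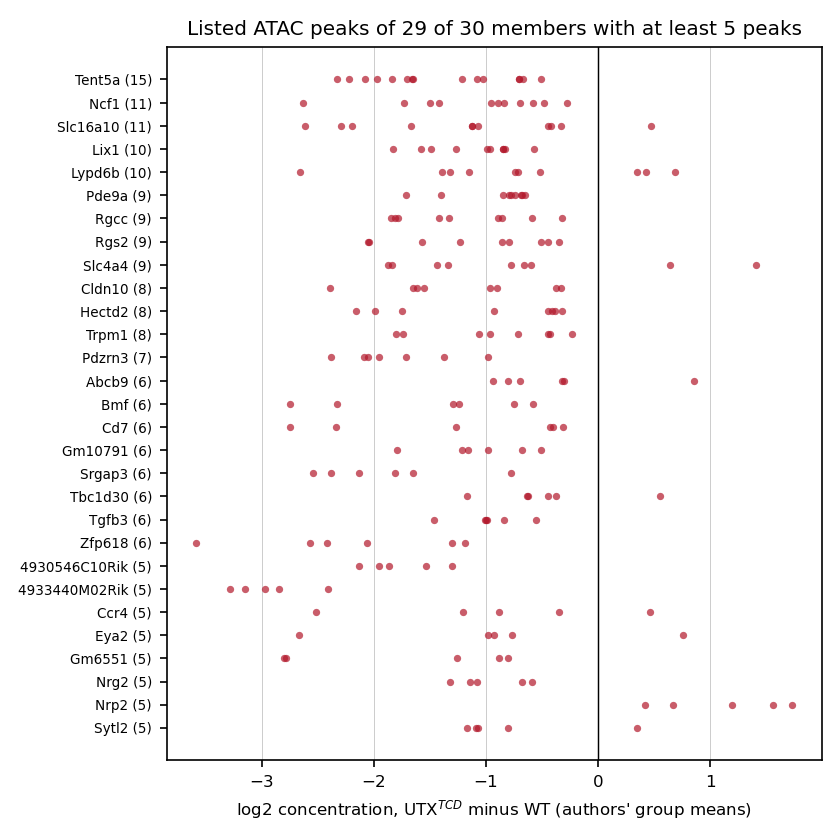
Differences in log2 concentration, UTX TCD minus WT, on the horizontal axis, for every peak listed under 29 of the 30 members with at least 5 peaks, whose number is in parentheses. Each point is a peak of the authors' group means. Most lie below 0, and the 5 of *Nrp2* all lie above it.

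Along the genome the members were spread out, with a few close neighbours. Chromosome 2 held 20 of its 1087 measured genes (1.84%), chromosome 3 held 14 (2.19%) and chromosome X 3 of 473, against 1.13% overall. Besides the alcohol dehydrogenase genes, 8 further pairs lay within 200 kb of each other. *Adgrg5* and *Adgrg3* on chromosome 8 flank *Adgrg1*, which had a log2 fold change of 0.61. *4930471G03Rik* lies within *Nrg2* on chromosome 18, and *Gm10791* overlaps *App* on chromosome 16. By gene type, 145 members were protein coding (88.4%, against 86.8% of measured genes) and 14 were long non-coding RNAs (8.54%, against 4.88%).

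Promoter sequence of the members differed in composition from that of other measured genes. RefSeq promoters of GRCm38, from 250 bases before to 50 after a start, were held for 118 members, 145 promoters in all. Their median GC content was 54.7%, against 60.3% for measured genes and 52.7% for all 32851 promoters. The median ratio of observed to expected CpG was 0.319, against 0.734 and 0.384. A ratio of at least 0.6 was found in 28.3% of members' promoters, 65.4% of measured genes' and 35.8% of all. Members also had lower WT levels than measured genes (median 214, against 2498). The promoters compared were not matched for level.

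Short motifs were searched on both strands. The AP-1 letters TGANTCA were in 13.8% of members' promoters, 7.81% of all promoters and 5.21% of measured genes' promoters. The RUNX letters TGTGGT were in 20.7%, 16.8% and 13%, and the ETS letters AGGAAG in 39.3%, 35.4% and 33.9%. The KLF and SP letters GGGCGG were in 38.6%, 35.7% and 60.1%. For TCF and LEF, CTTTGA was in 16.6%, 16% and 12.1%, and for NFAT, TGGAAA was in 14.5%, 21.4% and 17.1%. For STAT, TTCNNNGAA was in 6.21%, 8.30% and 6.83%, and for T-box factors, AGGTGT was in 10.3%, 13.7% and 11.3%. A match describes letters only, and these shares were not matched for level either.

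The same letters were read, after the values were seen, in 401-base peaks. Among members' lower peaks, AP-1 letters were in 16.3%, against 15.5% of all lower peaks and 12.8% of all listed peaks. RUNX letters were in 44.9%, 48.8% and 39.7%, and ETS letters in 58.1%, 60.9% and 56.5%. KLF and SP letters were in 21.3%, 14.8% and 22.3%, and T-box letters in 19.9%, 24.8% and 23.5%. TCF and LEF letters were in 28.1%, 32.0% and 30.6%, STAT letters in 12.9%, 12% and 11.9%, and NFAT letters in 27.8%, 28.2% and 27.6%.

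Promoters that a listed peak overlaps are shown for 4 members, 2 with loss (*0610031O16Rik*, *Plaur*) and 2 with gain (*Procr*, *Nrp2*), picked after their values were seen. Each is the 250 bases before the RefSeq start, read in the direction of the gene, and capitals mark the motif letters above on either strand. The peaks over them differed by -1.40 for *0610031O16Rik*, -0.435 for *Plaur*, 1.68 for *Procr* and 1.19 for *Nrp2*.
0610031O16Rik promoter, chr3:138239664-138239913, strand -: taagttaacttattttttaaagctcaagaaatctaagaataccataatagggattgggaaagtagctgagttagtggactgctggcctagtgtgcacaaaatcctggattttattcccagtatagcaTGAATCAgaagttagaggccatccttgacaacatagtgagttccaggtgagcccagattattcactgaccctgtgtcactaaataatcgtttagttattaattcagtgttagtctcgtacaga
Plaur promoter, chr7:24462233-24462482, strand +: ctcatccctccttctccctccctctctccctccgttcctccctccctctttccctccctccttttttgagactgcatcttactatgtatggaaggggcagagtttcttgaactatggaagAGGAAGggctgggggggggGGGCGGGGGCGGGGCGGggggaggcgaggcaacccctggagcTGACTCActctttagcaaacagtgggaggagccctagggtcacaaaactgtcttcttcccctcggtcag
Procr promoter, chr2:155750967-155751216, strand +: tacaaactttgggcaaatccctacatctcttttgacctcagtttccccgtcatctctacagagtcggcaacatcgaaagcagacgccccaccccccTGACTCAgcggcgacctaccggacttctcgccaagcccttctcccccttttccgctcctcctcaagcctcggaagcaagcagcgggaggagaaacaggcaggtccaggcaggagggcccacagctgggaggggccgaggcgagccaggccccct
Nrp2 promoter, chr1:62703067-62703316, strand +: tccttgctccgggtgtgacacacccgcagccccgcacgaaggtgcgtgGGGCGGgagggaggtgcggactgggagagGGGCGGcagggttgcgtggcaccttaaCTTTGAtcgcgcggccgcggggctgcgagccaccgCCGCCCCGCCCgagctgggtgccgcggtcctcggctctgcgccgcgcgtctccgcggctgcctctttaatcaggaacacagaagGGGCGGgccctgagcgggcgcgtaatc
AP-1 letters stand in *0610031O16Rik*, *Plaur* and *Procr*, although the first 2 lost accessibility and *Procr* gained it. *Nrp2* and *Plaur* hold repeated KLF and SP letters.

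Away from promoters, the 3 lowest members' peaks in introns or between genes are shown by their central 200 bases on the plus strand, with the same use of capitals.
Zfp618 peak, chr4:63012861-63013060, strand +: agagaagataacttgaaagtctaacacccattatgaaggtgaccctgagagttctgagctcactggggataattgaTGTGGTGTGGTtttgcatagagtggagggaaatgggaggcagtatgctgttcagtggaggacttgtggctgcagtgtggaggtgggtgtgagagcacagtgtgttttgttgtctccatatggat
0610031O16Rik peak, chr3:138238168-138238367, strand +: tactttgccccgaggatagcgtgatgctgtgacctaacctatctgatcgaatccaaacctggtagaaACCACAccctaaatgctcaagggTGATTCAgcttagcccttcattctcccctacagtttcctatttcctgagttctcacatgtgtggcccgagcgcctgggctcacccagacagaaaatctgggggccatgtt
4933440M02Rik peak, chr7:125186525-125186724, strand +: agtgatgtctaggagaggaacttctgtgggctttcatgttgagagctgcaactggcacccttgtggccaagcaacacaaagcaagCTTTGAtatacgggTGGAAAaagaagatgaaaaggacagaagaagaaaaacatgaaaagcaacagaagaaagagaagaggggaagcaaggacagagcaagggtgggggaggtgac
RUNX letters appear in the *Zfp618* and *0610031O16Rik* peaks, an AP-1 match in that of *0610031O16Rik*, and TCF and NFAT letters in that of *4933440M02Rik*.

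Several members are better known from other cells, so marker lists were read in the same libraries. Of 8 CD8 T cell markers none passed both limits in limma, and 7 had an adjusted p under 0.05 with a smaller fold change, at most -0.49 for *Cd2*. *Cd8a*, with the highest count, was counted at 272448, 270012 and 274004 in WT and 311527, 313000 and 270975 in UTX TCD libraries. Their summed level was 1083839, 1016975 and 1069495 in WT and 1026871, 1011041 and 927928 in UTX TCD libraries. Stem-like progenitor markers summed to 727767, 749650 and 674915 in WT and 769073, 725599 and 731402 in UTX TCD libraries, led by *Tcf7*, with only *Bcl2* called, higher. Mediator markers summed to 69327, 68087 and 71026 in WT and 55045, 55259 and 57475 in UTX TCD libraries, led by *Nkg7*. Of the 7 that are not members *Cxcr6* was called lower. *Nkg7* and *Gzmb* had an adjusted p under 0.05 with a smaller fold change, at -0.46 and -0.47 in limma. The rest of the 7 had an adjusted p above 0.05. The part of this list in the members' loss was not tested. *Havcr2*, the other of the 8, is a member, so its loss follows from the choice.

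Monocyte, macrophage and neutrophil markers summed to 821.2, 859.9 and 655.9 in WT and 1201, 914.5 and 1218 in UTX TCD libraries, and most of that was *Cd68*, at 686, 667 and 544 in WT and 972, 703 and 896 in UTX TCD libraries. Of 5 measured, *Csf1r* was lower and *Mpeg1* and *Cybb* were higher, and *S100a8* and *S100a9* were at 0 in every library. The part of these markers in the values of *Cd163*, *Clec12a* and *Fcgr3* was not tested. The *Cybb* call was lost without WT replicate 3 (adjusted p = 0.0706 in limma), UTX TCD replicate 1 (adjusted p = 0.0934) or UTX TCD replicate 3 (adjusted p = 0.0737).

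Dendritic cell markers summed to 490.3, 475.9 and 393.5 in WT and 535.4, 510.9 and 834.5 in UTX TCD libraries, led by *Cd74*. Of 5 measured *Itgax*, which met every limit of the rule and was left out by name, was lower, and *H2-Ab1* was higher. The *H2-Ab1* call was lost without WT replicate 3 (adjusted p = 0.0985 in limma), UTX TCD replicate 1 (adjusted p = 0.108) or UTX TCD replicate 2 (adjusted p = 0.089). Markers of NK cells summed to 308.1, 303.1 and 243.3 in WT and 249.7, 167.4 and 231.5 in UTX TCD libraries, led by *Tyrobp*. Of 5 measured *Fcgr3* is a member, lower by the choice, and of the others only *Klre1* was called, higher.

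B cell markers, led by *Ighm*, summed to 114684, 97235 and 106665 in WT and 96341, 90985 and 82792 in UTX TCD libraries, with *Cd79b* lower and *Ms4a1* and *Cd22* higher of 6 measured. Without WT replicate 1 or 3, or UTX TCD replicate 2 or 3, the *Ms4a1* call was lost (adjusted p = 0.119, 0.0894, 0.0682 and 0.112 in limma). The part of these markers in the values of the V segments was not tested. Markers of CD4 and regulatory T cells, led by *Ikzf4*, summed to 1591, 1903 and 1505 in WT and 1363, 1465 and 1550 in UTX TCD libraries, with *Cd4* and *Zbtb7b* lower of 5. Leaving out any library but UTX TCD replicate 2 took away the *Cd4* call, with adjusted p of 0.0989, 0.101 and 0.0636 without WT replicates 1, 2 and 3 and of 0.0619 and 0.0796 without UTX TCD replicates 1 and 3 (limma). Gamma delta T cell markers, led by *Trdc*, summed to 67105, 59689 and 62123 in WT and 63925, 59399 and 59208 in UTX TCD libraries, with 2 of 4 higher, *Sox13* among them.

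Erythroid and platelet markers, led by *Itga2b*, summed to 641.9, 617 and 560.5 in WT and 618.6, 538.9 and 673.8 in UTX TCD libraries, and the lowest adjusted p of the 3 measured was 0.778 from limma. Stromal and endothelial markers, led by *Pecam1*, summed to 32260, 29929 and 32461 in WT and 38271, 38508 and 34281 in UTX TCD libraries. Of 4 measured *Col1a2* was higher, though not without UTX TCD replicate 2 (adjusted p = 0.081 in limma), and *Ccl19* and *Ccl21a* were at 0 in every library. Pancreatic markers, led by *Prss2*, summed to 203.1, 180.7 and 155.6 in WT and 146.2, 131.3 and 115 in UTX TCD libraries. *Cela1* was lower of 2 measured, and *Cela3b*, *Amy2a5* and *Ins2* were at 0 in every library.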

How the data were processed

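For RNA, the authors aligned reads to mm10 with HISAT2 2.2.1, counted them per gene with featureCounts, and deposited a signal per gene and library, which is the read count divided by a DESeq2 size factor. The annotation and strand setting were not stated. Whole reads were recovered for all 6 libraries, within 0.05 of a whole number, giving 146456724, 144503203 and 193568919 for WT, then 61512402, 175462433 and 187275082 for UTX TCD cells. A read was worth between 0.737 and 2.25 normalized counts. The floor of 3 reads covers counting error only. For ATAC-seq, the authors deposited the log2 concentration of each 401-base peak averaged over a genotype, from MACS2 peaks compared in DiffBind and named by HOMER. The deposited columns of log2 fold change with its error and adjusted p for RNA, and of overall concentration, fold, p and FDR for peaks, hold the authors' own comparison and were not used here.

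Members and lists were chosen with earlier results of these data known. Genes outside the rule were fitted with limma 3.58.1 in R 4.3.3 (lmFit, eBayes with trend) on log2 of normalized count plus 1, genotype only, over genes with a mean of at least 10, with Benjamini-Hochberg adjustment. With 3 libraries a group, an exact permutation test of 1 gene cannot give a p under 0.1. Positions, exon lengths and sequences come from RefSeq and the genome of GRCm38.p6, which is mm10. Peaks were joined to genes by symbol. Values in every library are given for the 12 members with the highest WT mean, the 12 with the lowest log2 ratio, members in a function list, members with a peak within 1000 bases of a start, and genes next to each limit. Genes of lists outside the rule are named only if called, from the 3 largest fold changes of a list. A few genes that these choices pick are left out of the text and figures. Roles were assigned by hand after the members were known. Alternatives covered the pseudocount, minimum mean, ratio limit, library scaling, test (edgeR 4.0.16, DESeq2 1.42.0), replicate block, peak limits and each library left out. Peaks under older gene names were added after seeing the data. Peaks in the authors' table only were available, with no value per library. CUT&Tag was not used here.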

Additional observations from a re-analysis of the deposited data

How the results depend on the processing

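The number of genes meeting the rule followed its ratio limit, with 261 at -1.5 and 107 at -2.5. Under the other settings with all libraries it lay between 132 (minimum mean 20) and 181 (minimum mean 5), with 136 at a pseudocount of 5 and 153 with every library scaled to the same sum. Without each library in turn it ranged from 150 to 178, and between 148 and 155 members were kept. No member's log2 ratio changed sign, but the choice of members fixes this when a library is left out or the pseudocount changes.

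Genes called lower numbered from 837 to 1023 without each library in turn, and genes called higher from 1325 to 1549. With equal sums the counts were 851 and 1727, and the share of calls that were higher went from 59.8% to 67.0%. Of 125 genes called in the function lists, 31 lost the call in at least 1 setting. With replicate number as a block, 990 genes were called lower and 1484 higher. Same-numbered libraries share only their number, and residuals of same-numbered pairs correlated at 0.305, -0.2 and 0.09.

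Members with a peak numbered 57 when only peaks within 1000 bases of a start were taken, 79.0% of those peaks were lower, and their median difference was -0.50. The median difference was -0.98 for peaks with an absolute difference over 0.5, -0.81 within 50000 bases, -0.84 with older gene names added and -0.73 with 1 value a gene. It stayed below 0 in each of these settings, and narrower windows hold fewer peaks by construction. Beyond that, the cause was not tested.

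Depth limits the members with few reads: 59 had a mean under 10 normalized counts in UTX TCD cells, and 1 read of the shallowest library was worth 2.25. Peaks with an adjusted p of 0.05 or more are absent from the authors' table, so members without a listed peak may have unchanged or unmeasured regions. Since peaks were joined by symbol, a member may also lack peaks because they carry another name, as at *Irag1*.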
